A study of Homo sapiens with 20 samples.

Results

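Transcript levels of 8 cell cycle cyclins and of the kinases CDK1 and CDK2 were examined in NGP cells, a human neuroblastoma cell line. The 10 genes were chosen by name as CCND1, CCND2, CCND3, CCNE1, CCNE2, CCNA2, CCNB1, CCNB2, CDK1 and CDK2, out of 27697 genes tested, and all 10 passed the filter on low counts. The RNA-seq data hold 10 samples treated with nutlin-3 (a racemic mixture at 8 µM, called nutlin here) and 10 treated with ethanol as vehicle. All 20 samples are biological replicates of this single line, grown in 6-well format, and the length of treatment is not given in the sources used here. The levels thus describe 1 cell line at 1 dose.

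Cyclins are the regulatory subunits of the cyclin-dependent kinases, and most of them rise and fall with the phases of the cell cycle. D cyclins pair with CDK4 and CDK6 in G1 and respond to growth signals, E cyclins pair with CDK2 at the entry into S phase, cyclin A2 pairs with CDK2 in S phase and later with CDK1, and B cyclins pair with CDK1 to drive mitosis. Nutlin-3 binds MDM2, the ubiquitin ligase that keeps p53 low, and p53 induces CDKN1A, whose protein p21 inhibits cyclin-CDK complexes.

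Library totals ran from 14455477 to 19532971 estimated read pairs with vehicle and from 15078052 to 17442896 with nutlin. MDM2, as a check of the labels, rose from a mean of 245 to 5564 CPM (counts scaled to the size of the library), and all nutlin samples were above all vehicle samples. The 8 neuroblastoma markers examined were all present, with MYCN at a mean of 3799 CPM in vehicle samples. Of 6 markers of other cell types, HBB and SOX10 did not reach the test, and PTPRC was at means of at most 0.16 CPM and was not SDE. The other 3 rose, EPCAM from a mean of 0.45 to 1.49 CPM, PECAM1 from 0.42 to 1.27 CPM and COL1A1 from 8.91 to 35.2 CPM, and their part in the results below was not tested. Of all genes tested, 58.8% were significantly differentially expressed (SDE) at a 5% false discovery rate (FDR) by the quasi-likelihood F-test of edgeR. Of all genes, 26.5% were SDE and lower with nutlin and 32.3% SDE and higher. The genes tested were mRNAs and long non-coding RNAs (lncRNAs). Of the 17351 mRNAs among them, 6682 were SDE and lower and 5624 SDE and higher.

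All 10 genes were SDE, 8 of them lower and 2 higher with nutlin. Of the D cyclins, CCND1 and CCND2 were higher and CCND3 was lower, by less than the other 7 genes, with the E cyclins next and the A and B cyclins and both kinases furthest down. The median log2 fold change (LFC) of nutlin over vehicle was -1.85 for the 10 genes and 0.19 for all genes tested. For the mRNAs tested, the class of all 10 genes, it was -0.006. Of the 10 genes, 6 were lower by at least 2-fold, as were 5.81% of all genes and 1331 of the 17351 mRNAs. In CPM, every nutlin sample was below every vehicle sample for 8 genes (16.6% of all genes) and above for CCND1 (12.2%), and only CCND2 overlapped, where 28.8% of all genes had no overlap in either direction. In bulk RNA, fewer cells in a cycle phase and less of these mRNAs per cell cannot be told apart.

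**Figure D1:**
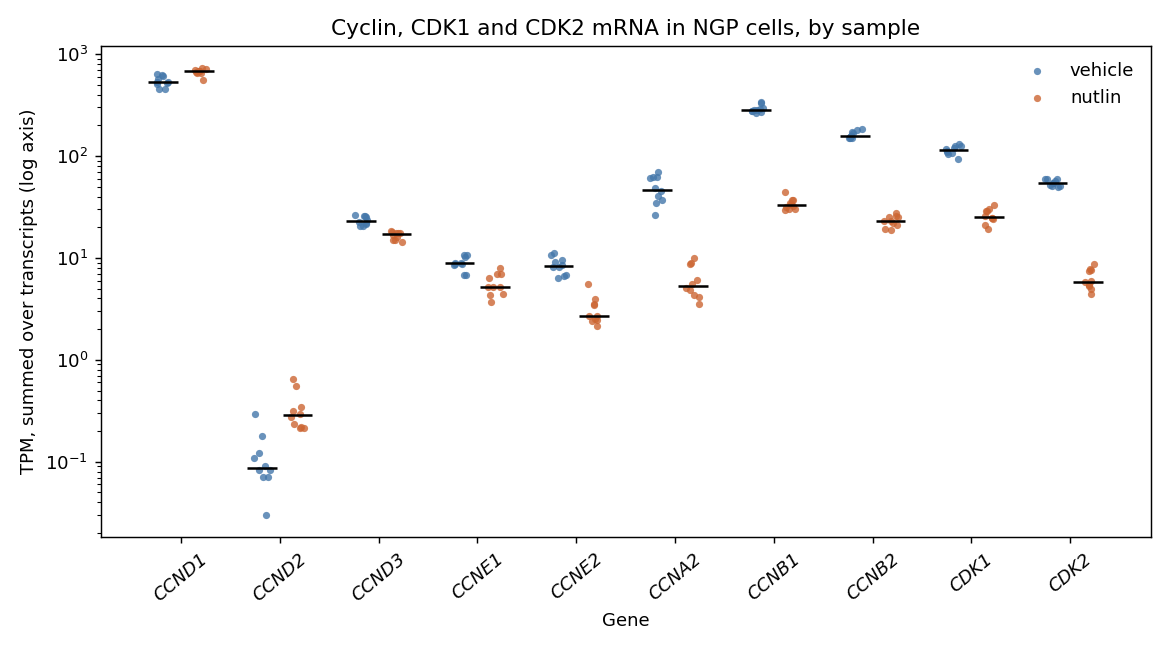
Level of each gene in TPM on a log axis, with 1 point per sample, 10 vehicle samples in blue and 10 nutlin samples in orange, and black bars at the medians. CCND1 stays highest in both groups, whereas the medians of CCNA2, CCNB1, CCNB2, CDK1 and CDK2 drop by more than 4-fold.

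The D cyclins did not move as a class. CCND1 (ENSG00000110092, GRCh38 chr11:69641156-69654474), encoding cyclin D1, was by far the most abundant of the 10 genes in TPM, a unit corrected for transcript length. This rank rests on the estimated split between transcripts. The main transcript, CCND1-201, held 88.4% of the counts of CCND1 but 44.03% of its TPM in vehicle samples. In nutlin samples it held 90.2% and 48.6%. Most of the TPM thus came from transcripts with few of the counts, and the rank on main transcripts alone was not tested. The level of CCND1 ran from 453 to 637 TPM with a median of 530 in vehicle samples, and from 552 to 725 TPM with a median of 683 in nutlin samples. These TPM ranges overlapped, while in CPM the vehicle samples ended at 1144 and the nutlin samples began at 1414. The LFC of CCND1 was 0.45 ± 0.03 (SE, n = 10 per group; edgeR, adjusted p = 8.6e-14). This rise depended on the scaling in size but not in direction, from 0.30 with an offset for effective length to 0.64 on library size alone. On library size alone the median LFC of all genes shifted by 0.18, to 0.37, and relative to the median of all genes CCND1 was higher by 0.26 under both this scaling and TMM. With the offset for effective length CCND1 was higher than that median by 0.11. These medians include lncRNAs, and for the mRNAs alone the median LFC with TMM was -0.006. CCND1 shares up to 253 bases of exon with LTO1 on the opposite strand, which had an LFC of 0.09.

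CCND3 (ENSG00000112576, chr6:41934934-42050357), encoding cyclin D3, fell. It ran from 20.4 to 26.5 TPM with a median of 22.8 in vehicle samples and from 14.4 to 18.2 TPM with a median of 17.1 in nutlin samples, so that the groups did not overlap. Its LFC was -0.55 ± 0.05 (SE, n = 10 per group; edgeR, adjusted p = 3.9e-11), and on library size alone it was -0.36. CCND2 (ENSG00000118971, chr12:4269771-4305353), encoding cyclin D2, was near the limit of detection. It held between 3 and 23 counts in a vehicle sample, with a median of 8.5, and between 13 and 36 in a nutlin sample, with a median of 24. Vehicle replicate 11 alone reached 1.87 CPM, within the nutlin samples, and the next highest vehicle sample was at 0.80 CPM. The LFC of CCND2 was 1.30 ± 0.25 (SE, n = 10 per group; edgeR, adjusted p = 3.7e-05), and 1.61 without vehicle replicate 11. At its highest in TPM, in nutlin replicate 11, CCND2 stood at 0.65 TPM. In CPM that sample was at 1.25, where the nutlin samples ran from 0.86 to 2.22. CCND1 made up most of the cyclin D mRNA in both groups.

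Ratios between related genes within a sample do not depend on the scaling between samples. 7 ratios of TPM were tested by permutation with 100000 resamples (two-sided, n = 10 per group), where 2e-05 is the smallest p-value possible. The log2 ratio of CCND1 to CCND3 rose from a mean of 4.54 ± 0.11 (SD) to 5.34 ± 0.12, a shift of 0.80 (permutation p = 2e-05, adjusted over the 7 ratios p = 0.00014) with no overlap of the samples. That of CCND2 to CCND3 rose by 2.17 (95% interval 1.45 to 2.90, permutation p = 4e-05). That of CCND1 to CCND2 changed by -1.37 (95% interval -2.10 to -0.65, permutation p = 0.0007). The 3 D cyclins thus changed unequally within the samples. CCND1 and CCND3 moved apart, while CCND2, the lowest of them in both groups, came nearer to both.

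The E cyclins fell, CCNE2 more than CCNE1. CCNE1 (ENSG00000105173, chr19:29811991-29824312), encoding cyclin E1, ran from 6.80 to 10.8 TPM with a median of 8.83 in vehicle samples and from 3.68 to 7.90 TPM with a median of 5.16 in nutlin samples. The groups overlapped in TPM but not in CPM. Its LFC was -0.81 ± 0.10 (SE, n = 10 per group; edgeR, adjusted p = 1.1e-08). CCNE2 (ENSG00000175305, on chromosome 8), encoding cyclin E2, ran from 6.32 to 11.3 TPM with a median of 8.36 in vehicle samples and from 2.15 to 5.51 TPM with a median of 2.68 in nutlin samples, without overlap. Its LFC was -1.54 ± 0.11 (SE, n = 10 per group; edgeR, adjusted p = 1.8e-13). The genes stood side by side in vehicle samples, with CCNE1 above CCNE2 in 6 of 10, and CCNE1 was above CCNE2 in all 10 nutlin samples. The log2 ratio of CCNE1 to CCNE2 rose by 0.78 (95% interval 0.37 to 1.20, permutation p = 0.00042, adjusted over the 7 ratios p = 0.00059).

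The transcripts of CCNE2 did not fall equally. The protein-coding transcript CCNE2-202 held a mean of 51.5% ± 4.8 (SD, n = 10) of the estimated counts of the gene in vehicle samples and 18.0% in nutlin samples, and the samples of the groups did not overlap. In counts it went from between 44.4 and 107 with a median of 76.2 to between 0 and 15.1 with a median of 12.2. CCNE2-203, annotated as a retained intron and not as protein-coding, had a median of 7.58 counts in vehicle and 8.74 in nutlin samples, while its share went from 5.87% to 18.6%. The share of CCNE2-205 went from 31.7% to 48.8%. The adjusted permutation p-values over 23 transcripts of the genes were 0.00046, 0.00046 and 0.017 for CCNE2-202, CCNE2-203 and CCNE2-205 (n = 10 per group). On shares of TPM the change of CCNE2-205 no longer passed, at an adjusted p of 0.13.

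Part of CCNE2 lies over another gene. INTS8, which encodes a subunit of the Integrator complex, runs on the opposite strand, and exons of it cover 1628 of the 3330 bases of CCNE2-205 but only 133 of the 1361 bases of CCNE2-202. INTS8 stood at 36.9 CPM in vehicle and 28.4 CPM in nutlin samples, against 9.58 and 3.29 CPM for CCNE2, and its LFC was -0.38. The libraries were stranded, but the counting is not stated to have used the strand, so reads of INTS8 and of CCNE2 cannot be told apart where the genes overlap, and the part of this overlap in the difference between transcripts was not tested. The ratio of mean CPM was -3.04 on the log2 scale for CCNE2-202 and -0.98 for CCNE2-205.

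**Figure D2:**
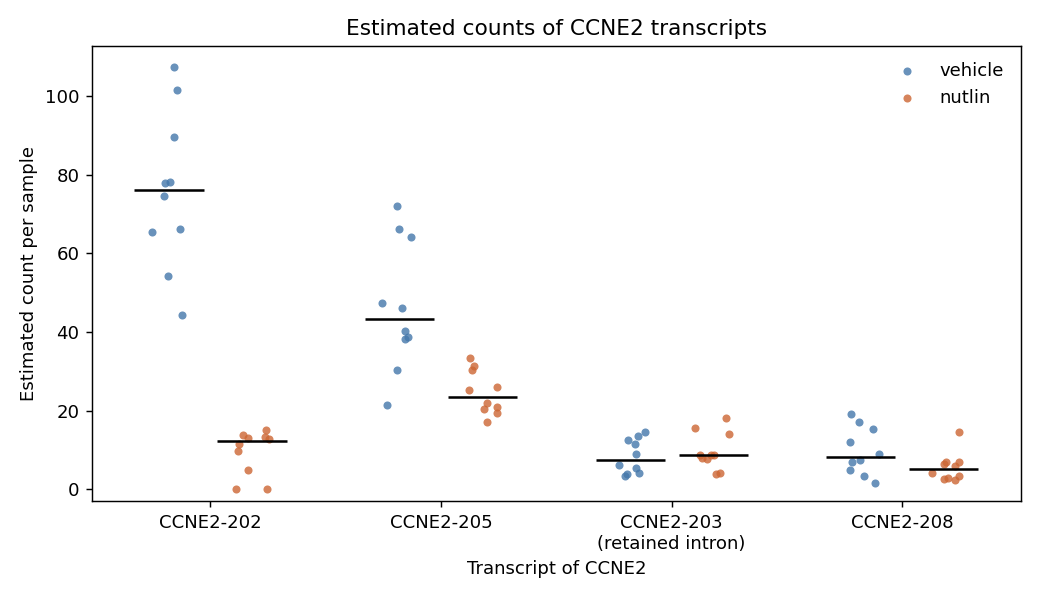
Estimated counts per sample of the 4 most abundant transcripts of CCNE2, with 10 vehicle samples in blue and 10 nutlin samples in orange and black bars at the medians. CCNE2-202 falls from a median of 76.2 to 12.2, and the retained-intron transcript CCNE2-203 stays at 7.58 and 8.74.

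Cyclin A2 kept 12.8% of its vehicle level by the LFC. CCNA2 (ENSG00000145386, chr4:121816444-121823883), its gene, ran from 26.5 to 70.1 TPM with a median of 46.8 in vehicle samples and from 3.57 to 10.02 TPM with a median of 5.26 in nutlin samples. The lowest vehicle sample was thus more than 2-fold above the highest nutlin sample. The LFC was -2.97 ± 0.17 (SE, n = 10 per group; edgeR, adjusted p = 2.1e-15). CCNA2 was more variable between replicates than CDK2, a gene of similar level in TPM, with a coefficient of variation in CPM of 27.6% in vehicle and 36.1% in nutlin samples, against 6.00% and 15.5% for CDK2. Its single annotated transcript shares 254 bases with EXOSC9, an exosome subunit on the opposite strand, which went from 81.7 to 34.3 CPM and varied by 6.03% and 6.64%. The part of this overlap in the spread of CCNA2 was not tested.

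Both B cyclins fell by a similar amount. CCNB1 (ENSG00000134057, chr5:69167135-69178245), encoding cyclin B1, ran from 264 to 341 TPM with a median of 281 in vehicle samples and from 29.2 to 44.3 TPM with a median of 33.2 in nutlin samples. CCNB2 (ENSG00000157456, chr15:59105126-59125045), encoding cyclin B2, ran from 150 to 184 TPM with a median of 157 in vehicle samples and from 18.8 to 27.4 TPM with a median of 23.2 in nutlin samples. Neither gene had any overlap between the groups. The LFC was -3.06 ± 0.06 for CCNB1 (SE, n = 10 per group; edgeR, adjusted p = 1.6e-26) and -2.79 ± 0.06 for CCNB2 (adjusted p = 3.8e-25). Only 37 of the genes tested had a lower LFC than CCNB1, and 84 a lower one than CCNB2. The fall of CCNB1 was slightly the larger, since the log2 ratio of CCNB1 to CCNB2 changed by -0.28 (95% interval -0.41 to -0.15, permutation p = 0.0001, n = 10 per group). The log2 ratio of CCNA2 to CCNB1 changed by 0.08 with a 95% interval of -0.36 to 0.52 (permutation p = 0.71), so that a difference between their falls was not detectable beyond the spread of the samples.

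The kinase CDK2 had the lowest LFC of the 10 genes. CDK2 (ENSG00000123374, chr12:55966781-55972789) ran from 49.1 to 59.5 TPM with a median of 54.3 in vehicle samples and from 4.46 to 8.73 TPM with a median of 5.83 in nutlin samples. CDK1 (ENSG00000170312, chr10:60778331-60794852), the mitotic kinase, ran from 93.3 to 132 TPM with a median of 115 in vehicle samples and from 19.2 to 33.0 TPM with a median of 25.3 in nutlin samples. All nutlin samples were below all vehicle samples for both. The LFC was -3.11 ± 0.06 for CDK2 (SE, n = 10 per group; edgeR, adjusted p = 1.2e-26) and -2.16 ± 0.07 for CDK1 (adjusted p = 3.7e-22). CDK2 thus kept 11.5% of its vehicle level and CDK1 22.4%. The log2 ratio of CDK1 to CDK2 rose by 0.99 (95% interval 0.74 to 1.24, permutation p = 6e-05, adjusted over the 7 ratios p = 0.00014), with 1 nutlin sample inside the range of the vehicle samples. CDK2 shares at most 66 bases of exon with PMEL on the opposite strand, whose LFC was -0.63.

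Sequences before a start site of CCNA2, CCNB1, CCNB2 and CDK1 are shown because these genes of S phase and mitosis fell together. RefSeq promoter windows of GRCh38.p14, from 250 bases before to 50 after a start site, were given for 6 of the 10 genes, in 9 windows. CCND1, CCND2, CCNE2 and CDK2 had none. Letters known from promoters of cell cycle genes were searched on both strands: the CCAAT box, the forms TTTGAA and TTCGAA of the cell cycle homology region (CHR), and the E2F letters TTGGCGC and TTCGCGC. No other form of the CHR was searched, so a stretch in which neither form is marked is not shown to lack a CHR. The letters found are in capitals below. Distances are counted from the start site of a window. The stretches of CCNB1 and CCNB2 end 15 and 20 bases before their start sites, 69167150 and 59105146. Each stretch reads 5′ to 3′ along its gene. CDK1 had windows at the start sites 60778331 and 60778478. For CDK1 only the last 30 bases before the site at 60778478 are given, and these lie inside the annotated gene, chr10:60778331-60794852. The stretches are chr5:69166985-69167134 (plus strand) for CCNB1, chr15:59104976-59105125 (plus strand) for CCNB2, chr4:121823884-121824033 (minus strand) for CCNA2 and chr10:60778448-60778477 (plus strand) for CDK1.
CCNB1: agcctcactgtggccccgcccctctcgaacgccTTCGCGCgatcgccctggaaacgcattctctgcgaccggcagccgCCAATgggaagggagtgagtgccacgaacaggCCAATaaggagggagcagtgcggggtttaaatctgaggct
CCNB2: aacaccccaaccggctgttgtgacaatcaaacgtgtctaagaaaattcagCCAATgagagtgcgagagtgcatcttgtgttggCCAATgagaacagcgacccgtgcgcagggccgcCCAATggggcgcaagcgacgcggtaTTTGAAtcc
CCNA2: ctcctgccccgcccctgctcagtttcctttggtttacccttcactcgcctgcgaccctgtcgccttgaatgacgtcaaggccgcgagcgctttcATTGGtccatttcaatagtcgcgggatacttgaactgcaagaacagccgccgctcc
CDK1: ccctttagcgcggtgagTTTGAAactgctc

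CCAAT stood in both orientations among these genes, and in several copies at a similar spacing. The CCNB1 window held it 87 and 55 bases before the start site. The CDK1 window at 60778478 held it 78 and 46 bases before that site in reverse, and each pair was 32 bases apart. The CDK1 window at 60778331 held it once, 150 bases before its start site. CCNB2 held it 120, 87 and 54 bases before the start site, in steps of 33, and once more 244 bases before it. Of all 35116 promoter windows, 34.6% held CCAAT and 10.8% held it at least 2 times. CCNA2 held it once, in reverse, 56 bases before the start site. Of the 3 windows of CCND3, 2 held it once, and the window of CCNE1 had none of the letters searched.

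TTTGAA stood 29 bases before the start site of CCNB2. The CDK1 window at 60778478 held it 69 and 13 bases before the start site and, in reverse, at base 10 after that site. The CDK1 window at 60778331 held it 161 bases before its start site. Of all windows, 15.2% held it and 5.90% held it together with CCAAT. The E2F letters TTCGCGC stood 132 bases before the start site of CCNB1 and in 2.24% of all windows. For CDK1 they stood 127 bases before the start site at 60778478, which is base 21 after that at 60778331. TTGGCGC stood 175 bases before the CDK1 start site at 60778478, 28 bases before that at 60778331, and in 3.04% of all windows. TTCGAA was in none of the 9 windows and in 1.45% of all. These matches are letters in a window and not binding sites, and no binding was measured here.

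**Figure D3:**
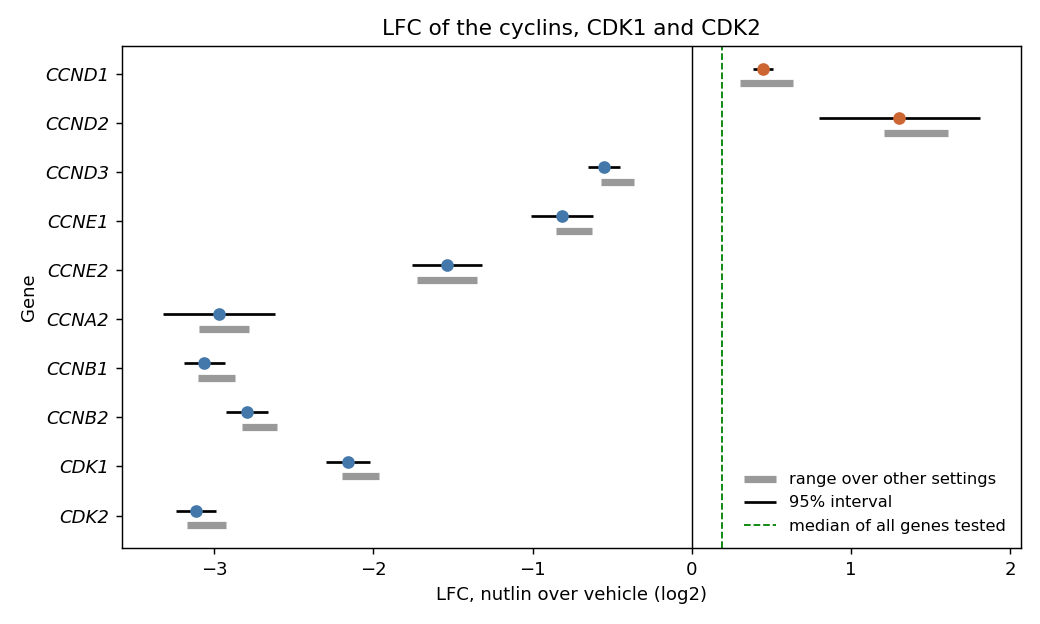
LFC of nutlin over vehicle for each gene (points) with its 95% interval (black lines) and the range over the other settings and the fits without 1 sample (grey bars). The dashed line is the median LFC of all genes tested, 0.19, and CCND1 and CCND2 are the only genes to the right of it.

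The order of the falls was resolved in part. From the lowest LFC upwards the genes were CDK2, CCNB1, CCNA2, CCNB2, CDK1, CCNE2, CCNE1, CCND3, CCND1 and CCND2. The differences between neighbours among CDK2, CCNB1, CCNA2 and CCNB2 had 95% intervals that included 0, for example -0.13 to 0.26 between CDK2 and CCNB1. CCNB1 and CCNB2, not neighbours in this order, did differ. Their log2 ratio of TPM changed by -0.28 (95% interval -0.41 to -0.15). From CCNB2 on, the 95% interval of every step excluded 0. The step was 0.63 (95% interval 0.47 to 0.79) between CCNB2 and CDK1, and the smallest was 0.27 (95% interval 0.03 to 0.52), between CCNE1 and CCND3.

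Levels per length ranked differently after treatment. In vehicle samples the order by mean TPM was CCND1, CCNB1, CCNB2, CDK1, CDK2, CCNA2, CCND3, CCNE1, CCNE2 and CCND2. CDK2 and CCNA2 overlapped, as did CCNA2 and CCND3, and CCNE1 and CCNE2. In nutlin samples CCND3 moved above CDK2 and CCNA2, and CDK1 above CCNB2. There CCNB1, CDK1 and CCNB2 overlapped as neighbours, as did CDK2, CCNA2, CCNE1 and CCNE2. CCND1 was followed at a mean of 671 TPM by CCNB1 at 34.1 TPM in nutlin samples, and at 544 TPM by CCNB1 at 290 TPM in vehicle samples.

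The make-up of the cyclin mRNA changed accordingly. D cyclins took 52.2% ± 4.1 (SD, n = 10) of the summed TPM of the 8 cyclins in vehicle samples and 90.5% ± 1.0 in nutlin samples. B cyclins went from 41.8% ± 3.7 to 7.54% ± 0.85, and cyclin A2 from 4.46% ± 1.21 to 0.80% ± 0.28. E cyclins, the smallest class in vehicle samples, went from 1.61% ± 0.26 to 1.15% ± 0.22, with overlapping samples, and were above cyclin A2 on average in nutlin samples. The D share of the lowest nutlin sample, 89.1%, lay above the highest vehicle sample, 57.1%. CCND1 made up most of the cyclin D mRNA, so the size of these shares also depends on how its counts are split between transcripts. Shares on main transcripts alone were not tested.

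**Figure D4:**
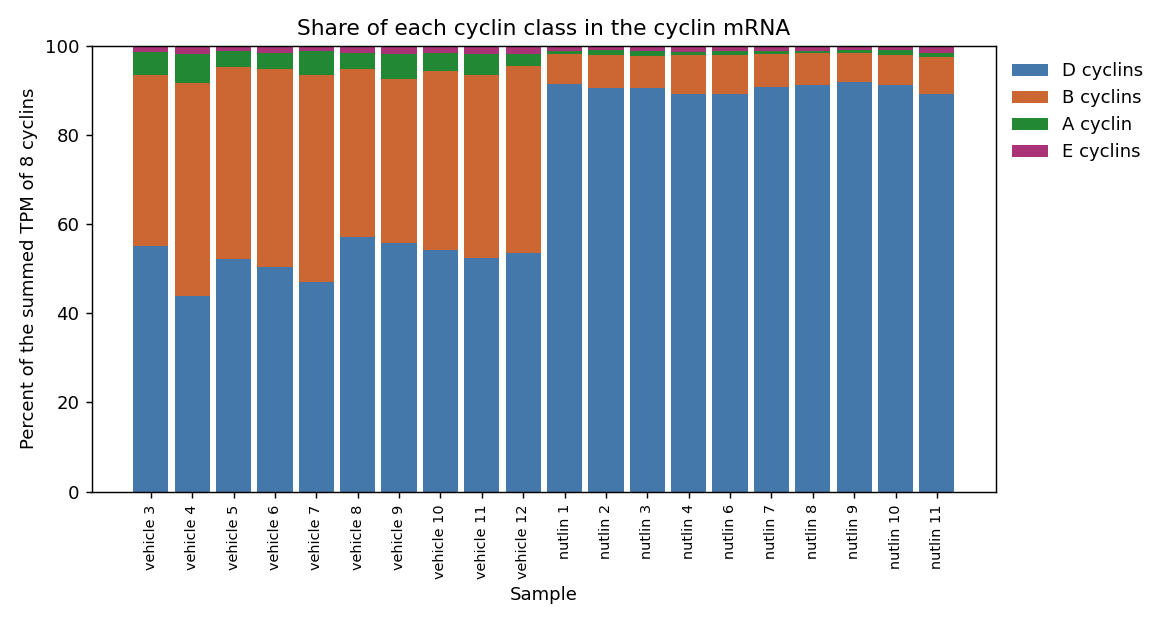
Percent of the summed TPM of the 8 cyclins taken by each class, with 1 stacked bar per sample and the 10 vehicle samples to the left. D cyclins (blue) fill 89.1 to 91.8% of the bar in nutlin samples against 43.97 to 57.1% in vehicle samples, and the share of B cyclins (orange) shrinks to between 6.68 and 8.85%.

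Few shares of other transcripts passed the test. Of the 23 transcripts tested in genes with at least 50 counts on average, 5 passed 5% FDR in their share of the counts of the gene, 3 of them in CCNE2. CCND3-203 went from 66.5% to 54.5% of CCND3 and CCND1-201 from 88.4% to 90.2% of CCND1, with adjusted permutation p-values of 0.017 and 0.026 (n = 10 per group), and on shares of TPM CCND1-201 no longer passed, at an adjusted p of 0.061. For CCNE1, CCNB1, CCNB2, CDK1 and CDK2 no transcript passed. The interval for the main CDK2 transcript, CDK2-201, was -7.02 to 3.46 percentage points and that for CCNB1-204 was -0.34 to 6.11. The split between transcripts that share exons is an estimate of kallisto.

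The other cyclins moved in both directions. The background for this list and the next 3 is the 17351 mRNAs tested. Of these mRNAs, 6682 were SDE and lower, 1331 of them by at least 2-fold, and 5624 were SDE and higher. Of 15 tested (CCNO was not), 5 were higher and 8 lower at 5% FDR, with a median LFC of -0.38. CCNF, whose product recruits substrates to an SCF ubiquitin ligase and peaks in G2, fell from a mean of 108 to 24.1 CPM (LFC -2.16). CCNK, the partner of the transcription kinases CDK12 and CDK13, rose from 54.4 to 137 CPM (LFC 1.33). Both changed without overlap of the groups.

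Of 19 other CDKs, 4 were higher and 13 lower, with a median LFC of -0.47. CDK14, which pairs with cyclin Y, fell from 31.8 to 15.1 CPM (LFC -1.07), and CDK18 from 1.95 to 0.92 CPM (LFC -1.07). CDK4 and CDK6, the partners of the D cyclins, were looked up for that role and not by size of change. CDK4 fell from 4148 to 2593 CPM (LFC -0.68; edgeR, adjusted p = 3.0e-13), while CDK6 was at 327 and 331 CPM (LFC 0.02; adjusted p = 0.83). CDK1 and CDK2 were lower in LFC than all 19.

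Most of the CDK regulators listed fell. Of 15, 3 were higher and 12 lower, 9 of these by at least 2-fold, with a median LFC of -1.64. The list holds CDKN2A, CDKN2B, CDKN2C and CDKN2D, genes of INK4 inhibitors, which bind CDK4 and CDK6 rather than CDK1 or CDK2. Without them, a choice made after the values were seen, 2 of 11 were higher and 9 lower, 8 of these by at least 2-fold. CDKN1A, encoding p21, rose from a mean of 32.8 to 1679 CPM (LFC 5.68), and CDKN2B, encoding p15, an INK4 inhibitor of CDK4 and CDK6, from 3.18 to 8.75 CPM (LFC 1.45). Genes that activate and genes that restrain CDK1 and CDK2 were among those that fell. CDC25A, a phosphatase that activates CDK2 and CDK1, fell from 128 to 18.2 CPM (LFC -2.81), and WEE1, a kinase that inhibits CDK1, from 133 to 22.5 CPM (LFC -2.57). CDKN2C, encoding p18, another INK4 inhibitor of CDK4 and CDK6, fell from 4.71 to 0.71 CPM (LFC -2.73).

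Of 6 genes of cyclin degradation, 5 were lower by at least 2-fold and 1, FBXW7, which marks cyclin E for degradation, was higher (LFC 0.90). CDC20, an activator of the anaphase-promoting complex, fell from 299 to 55.8 CPM (LFC -2.42). UBE2C, a ubiquitin-conjugating enzyme of that complex, fell from 237 to 49.5 CPM (LFC -2.26), and FBXO5, an inhibitor of it, from 54.0 to 12.8 CPM (LFC -2.07). In all, 38 of the 55 genes of these 4 lists were lower and 13 higher, with a median LFC of -0.68. Of all genes tested, 26.5% were SDE and lower and 32.3% SDE and higher.

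**Figure D5:**
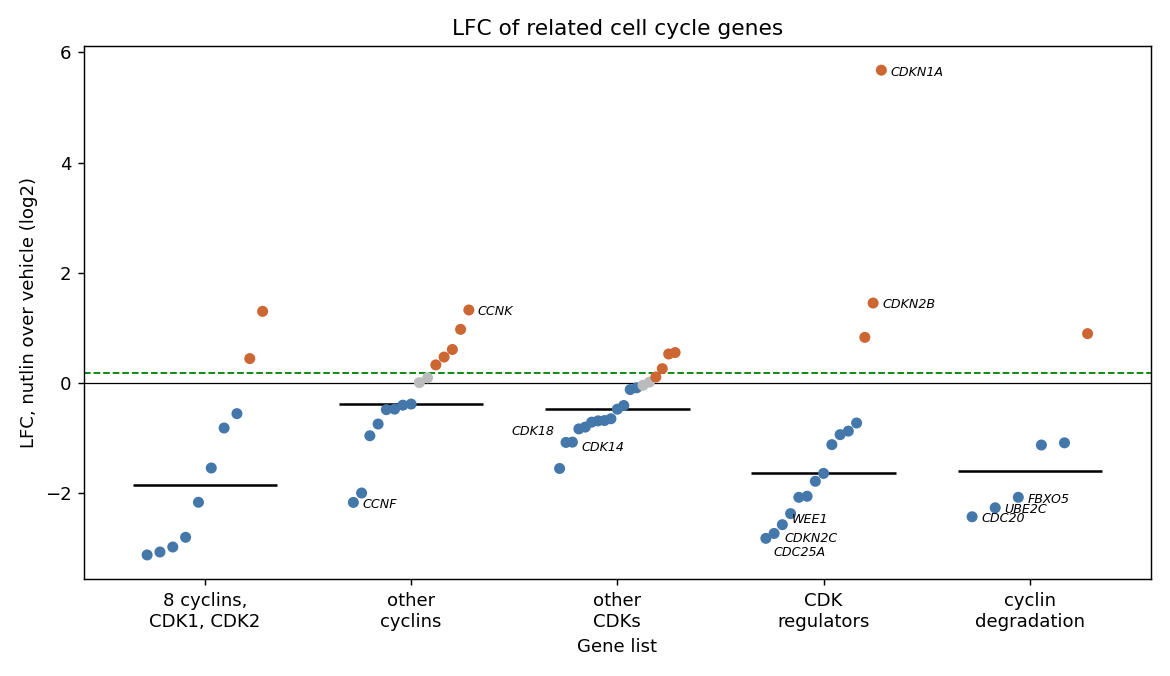
LFC of the 10 genes and of 4 lists of related genes, with 1 point per gene, sorted within a list (orange higher, blue lower, grey not SDE). Black bars are medians, which run from -1.85 for the 10 genes to -0.38 for the other cyclins, and the dashed line is the median of all genes tested, 0.19.

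Likeness between genes was described over the 20 samples by the Pearson correlation of log2(CPM + 1) within groups, against 15167 other genes (mean level at or above 1 CPM). The points share libraries and depth, and the values are given as a description. The genes closest to CCNB2 were BIRC5, KPNA2 and PCBP2 (r = 0.91, 0.90 and 0.86), and those closest to CCNB1 were COTL1, PSRC1 and KIF20A (r = 0.85, 0.84 and 0.84). MAD2L1, TTK and YWHAQ were closest to CDK1 (r = 0.83, 0.82 and 0.79), and TIMELESS, SPSB4 and TRIP13 to CDK2 (r = 0.77 each). BIRC5, PSRC1, KIF20A, MAD2L1 and TTK encode proteins of mitosis, and the other neighbours named here were not sorted by role.

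The D and E cyclins and CCNA2 had other neighbours. PHLPP2, PTPRO and CDKN1A were closest to CCND1 (r = 0.83, 0.81 and 0.80), RNF10, LRRC8A and PSMD3 to CCND3 (r = 0.86, 0.84 and 0.82), and KCNA7, ZNF345 and ENSG00000273618 to CCND2 (r = 0.78, 0.73 and 0.72). For CCNE1 they were FAM120C, ZNF778 and CMC4 (r = 0.85, 0.77 and 0.74), for CCNE2 JMJD1C-AS1, ICA1L and ENSG00000245651 (r = 0.77, 0.73 and 0.72) and for CCNA2 RNF144B, WWP1-AS1 and GLS2 (r = 0.69, 0.68 and 0.68). Among the 10 genes themselves, CCNB1 and CCNB2 were the closest pair in vehicle samples, with r = 0.94 over the 10 vehicle samples and 0.70 over the 10 nutlin samples.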

How the data were processed

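Sample groups were taken from the treatment in the labels. The authors quantified reads with kallisto 0.42.4 (Ensembl v85 transcripts of GRCh38) and deposited, per transcript, estimated counts with no normalization, TPM (counts scaled by effective length and depth) and other columns of effective and full length in bases. Of 198968 transcripts, 191106 were matched to GENCODE release 44. The share of counts on matched transcripts was 96.66% to 96.78% with vehicle and 95.71% to 95.95% with nutlin. Counts were summed per gene and rounded, and genes annotated as protein-coding or lncRNA were kept. A gene needed 1 count or more in both conditions to be tested, with edgeR 4.0.16 in R 4.3.3 (TMM, quasi-likelihood, Benjamini-Hochberg over all genes). TPM gave levels, ratios and, as an alternative, transcript shares. DESeq2 1.42.0 and limma 3.58.1 were alternatives. The fits were tested on simulated data. Permutations used scipy 1.17.1 in Python 3.11.15.

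The members and lists were chosen with earlier results of these data known. Named genes were the 10 genes, MDM2, list genes past 5% FDR with a mean level of 1 CPM or more and an absolute LFC of 1 or more (up to 3 per direction and list), and the 3 genes most like each of the 10. FBXW7, CDK4, CDK6 and genes that overlap one of the 10 were named outside this rule, after their values were seen. Intervals cover the spread between samples.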

Additional observations from a re-analysis of the deposited data

Results flagged for a closer look

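Of 44 groups of 10 values checked (TPM levels, log2 ratios and the transcript shares that passed), 3 held a sample far from the other 9, where chance gives about 1 in 20. In nutlin replicate 6 CCND1 was at 552 TPM, below the others, of which the lowest was at 645 TPM. In CPM the same sample stood at 1426, within the range of 1414 to 1522 of the others. In nutlin replicate 4 CCNB1 was at 44.3 TPM, above the next highest at 37.2 TPM, and in CPM it was at 45.3 with the next at 43.3. In nutlin replicate 3 the log2 ratio of CDK1 to CDK2 was 1.14 in TPM, where the others ran from 1.95 to 2.29. There CDK1 was the lowest of the nutlin samples at 19.2 TPM and CDK2 the highest at 8.73 TPM. The log2 ratio from CPM was 1.67 in that sample and from 1.75 to 2.32 in the others.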

How the results depend on the processing

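All 10 genes kept their direction and passed 5% FDR under all 10 alternatives and in 20 fits that each left out 1 sample (added after the data were seen). Without 1 sample, 15932 to 16198 genes were SDE. On library size alone 67.7% of the SDE genes were higher with nutlin, against 54.9% with TMM. The number of SDE genes among all genes, among the 10 genes and in the lists stayed within 1.5 times of the main value under each alternative. Replicate numbers, of which 8 are shared between the groups, did not pair the samples (r of deviations from the group means -0.05 to 0.08, 1 of 8 closest to its own number). With a block for the replicate number in these 16 samples, 14276 genes were SDE, against 14992 for the same samples without the block and 16275 in all 20, and all 10 genes remained so. In paired differences over the 8 numbers 0 of the 5 transcript shares passed by an exact permutation test, with a smallest adjusted p of 0.090 where the smallest raw p possible is 0.0078, and on shares of TPM 3 did. The log2 ratio of CCNA2 to CCNB1, not significant in any case, changed by -0.085 in paired differences. Depth limits CCND2 and the transcripts of CCNE2.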
